A study of Mus musculus with 9 samples.

Results

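Smooth muscle contractile and structural genes were described as a group of 31 genes in 9 RNA libraries of mouse uterus. The members were taken by symbol from the 34619 unique gene symbols that each library lists, and all 31 were found. By role they comprised 11 genes of the actin filament (Acta2, Actg2, Tagln, Cnn1, Tpm1, Tpm2, Cald1, Lmod1, Smtn, Synpo2 and Nexn) and 3 of myosin and its regulation (Myh11, Myl9 and Mylk). A further 2 encode intermediate filament proteins (Des and Synm) and 5 belong to adhesions and dense bodies (Flna, Vcl, Pgm5, Itga8 and Ldb3). The other members were 8 genes of calcium and potassium handling (Cacna1c, Ryr2, Pln, Casq2, Jph2, Kcnma1, Kcnmb1 and Pcp4) and 2 of transcription (Srf and Myocd).

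The animals were wild-type female mice of the outbred CD-1 (ICR) stock, bought at 7 to 8 weeks of age, kept for 1 week before dosing and fed a diet free of estrogen. Of the 3 groups, 1 received bisphenol B (BPB) and another bisphenol AF (BPAF), each at 300 µg per kg of body weight per day, and the control group received the pure corn oil vehicle. Dosing was by gavage for 28 days, and each group holds 3 libraries of whole-tissue poly(A) RNA. Both compounds are used in place of bisphenol A: they differ at the carbon between the phenol rings, to which BPB has methyl and ethyl attached and BPAF a pair of trifluoromethyl groups. The labels number the libraries within a group but do not say that each came from another animal, so the p-values measure the spread between these samples. The stage of the estrous cycle at collection is not among the labels.

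In the uterus, smooth muscle forms the myometrium, the outer wall that contracts in labor, and it also surrounds the vessels. A contraction begins when calcium enters the cell or leaves its internal store. Calcium-bound calmodulin then activates myosin light chain kinase, which phosphorylates the light chains and lets smooth muscle myosin pull on actin filaments. The filaments are anchored in dense bodies and membrane plaques and held in place by desmin and synemin. Many of these genes are known targets of serum response factor (SRF), which binds a DNA motif called the CArG box together with coactivators such as myocardin.

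Libraries differed in ways that matter for these genes. Levels are in FPKM, the reads of a gene divided by its length and by the depth of the library. Depth per library lay between 12620197 reads (control 3) and 15616774 reads (BPB 2), and between 11614 (control 3) and 13105 (BPAF 1) genes reached 1 FPKM. Mitochondrial genes took 19.6% to 27.0% of the summed FPKM in the 6 exposed libraries and 14.0%, 14.1% and 34.1% in control 1, 2 and 3. Markers listed for uterine stroma and epithelium were detected, some at low levels. None of 11 markers of each was at 0 in any library, but Lgr5 stood at 0.0150 to 0.0869 FPKM in the controls. Hoxa11, a uterine stromal gene chosen after its values were seen, lay between 14.3 and 99.8 FPKM. Whether the listed markers are specific to uterus was not tested. A list of 15 genes of the urothelium, the lining of the urinary tract, summed to 2010, 2921 and 3372 FPKM in BPB 1, 2 and 3 and to 1795 FPKM in BPAF 1. The same list summed to 15.2 and 22.3 FPKM in BPAF 2 and 3 and to 31.6 to 93.0 FPKM in the controls. Foxa1, a transcription factor of urothelium, had 12.9, 24.5 and 29.1 FPKM in BPB 1, 2 and 3 and 8.73 FPKM in BPAF 1. In BPAF 2, BPAF 3 and all 3 controls it was listed at 0. BPB 1, BPB 2, BPB 3 and BPAF 1 thus stood apart from the other 5 libraries in these genes. The bladder wall also contains smooth muscle. As all 3 BPB libraries stand apart in this way, no result on BPB can be given without such libraries, and in these data the BPB group and the urothelial genes cannot be told apart.

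In BPB uteri 3 of the 30 members tested rose against control and 0 fell: Synm, a synemin intermediate filament gene, Synpo2, a gene for an actin-binding protein of the Z-disc and dense body, and Casq2, which encodes a calcium store protein. The mean level of Synm was 77.3 ± 32.0 FPKM in BPB uteri, against 7.93 ± 4.45 FPKM in control uteri (SD, n = 3 each). A gene was called at an adjusted p under 0.05 in limma over all 13743 genes tested, with Benjamini-Hochberg adjustment. By that rule 2.05% of the tested genes were called higher in BPB and 0.502% lower. Including these 3, 13 of 30 members were higher and 0 lower at an unadjusted p under 0.05, where 12.8% of all tested genes were. In 15 of 30 members the 3 BPB libraries all lay above the 3 controls, which held for 19.5% of all genes. A higher mean log2 level was found for 29 of 30 members and 63.5% of all genes, and the median log2 difference was 0.86 for the members and 0.15 for all genes. Ryr2 was too low to be tested.

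Scaling the libraries by median ratios moved the median of all genes from 0.15 to -0.04 and that of the members to 0.61. The same 3 members were called, and 6 in place of 13 were higher at an unadjusted p under 0.05. With the libraries rescaled without mitochondrial genes that number was 8. Median-ratio scaling also moved the split of all calls between BPB and control to 199 higher and 107 lower, in place of 282 higher and 69 lower. Rescaling without mitochondrial genes gave 208 higher and 44 lower. Calls of members were sensitive to single libraries: without BPB 2, BPB 3 or control 1 limma called 0 members, with lowest adjusted p-values of 0.113, 0.119 and 0.091, and 6, 3 and 7 members were higher at an unadjusted p under 0.05. Without BPB 1 or control 3 the count was 1 (Synm), and without control 2 it was 2 (Synm and Synpo2). Over all genes, 0 were called without control 1, and 0 higher and 1 lower without BPB 2 and likewise without BPB 3. A pseudocount of 0.01 left 58 higher and 8 lower, and the replicate number as a block left 11 higher and 8 lower. The calls in BPB of genes outside the members, given further on, come from the same test and share these limits.

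In BPAF uteri 0 of the 30 members passed the test against control, and the lowest adjusted p in limma was 0.309, for Actg2. Over all genes, 0.00728% were called higher and 0.0146% lower in this comparison. At an unadjusted p under 0.05 there were 4 members lower (Actg2, Tpm1, Myh11 and Kcnmb1) and 0 higher, where 2.75% of all genes were lower. In 7 of 30 members (Actg2, Cnn1, Tpm1, Tpm2, Myh11, Ldb3 and Kcnmb1) the 3 BPAF libraries all lay below the controls, which held for 2.5% of all genes. Mean log2 levels were lower for 28 of 30 members and for 29.9% of all genes. The members' median log2 difference was -0.72, and that of all genes was 0.21. Median-ratio scaling moved them to -0.98 for the members and -0.02 for all genes. Under it all 30 tested members had a lower mean and 15 of 30 were lower at an unadjusted p under 0.05, with 0 called. The shares of all genes under that scaling were not counted, so the counts of 30 and 15 have no background. The members' median was -0.42 without BPAF 3. Without BPAF 1, the BPAF library with urothelial genes, it was -0.97, with 0 members called and 9 lower at an unadjusted p under 0.05. The control libraries are shared with the BPB comparison, so the comparisons are not independent of each other. In such whole-tissue RNA, fewer smooth muscle cells and less of this RNA per cell cannot be told apart.

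**Figure D1:**
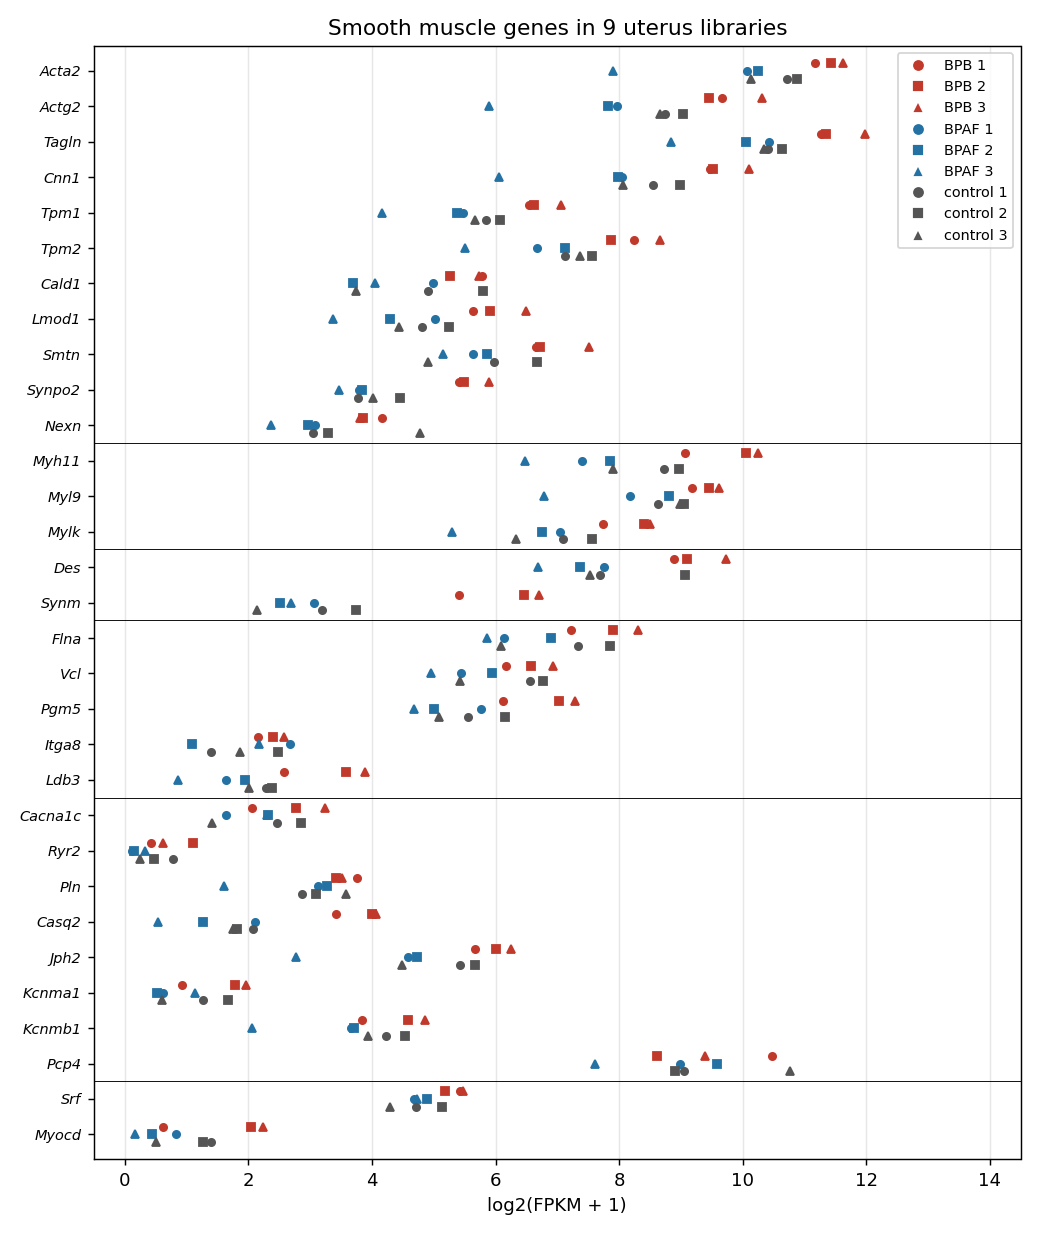
Level of each of the 31 members in each library, as log2(FPKM + 1) on the horizontal axis, with colors for the groups and symbols for the replicate numbers. Rows are ordered by role, with lines between roles. BPB 3 is the highest library for 25 of 31 members and BPAF 3 the lowest for 23, and the same count was not made over all genes.

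Srf itself, the gene of the transcription factor, stood at 42.0, 35.4 and 43.3 FPKM in BPB 1, 2 and 3, at 24.7, 28.5 and 25.6 FPKM in BPAF 1, 2 and 3 and at 25.1, 34.3 and 18.7 FPKM in control 1, 2 and 3. All BPB libraries lay above the controls, and BPAF overlapped with control. The log2 difference from control was 0.65 (SE 0.26) in BPB, with an adjusted p of 0.236 in limma. In BPAF it was 0.05 (SE 0.26, adjusted p = 0.952), and -0.24 under median-ratio scaling. Myocd, the gene of the coactivator myocardin, was expressed at a low level, with 0.529, 3.09 and 3.69 FPKM in BPB 1, 2 and 3, 0.773, 0.362 and 0.122 FPKM in BPAF 1, 2 and 3 and 1.63, 1.41 and 0.419 FPKM in control 1, 2 and 3. These correspond to 95, 594 and 609 reads in BPB, 122, 65 and 20 reads in BPAF and 302, 240 and 65 reads in control. The groups overlapped for Myocd, and it did not pass the test in BPB (log2 difference 0.57, SE 0.44, adjusted p = 0.563) or in BPAF (-0.58, SE 0.44, adjusted p = 0.594).

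CArG boxes were searched in promoter windows from RefSeq (build GRCm38.p6) that run from 250 bases before to 50 bases after each gene start. Such a window was given for 26 of the 31 members. Actg2, Tagln, Nexn, Myh11 and Myocd had none. A CArG box was present in the window of 4 of 26 members (Srf, Vcl, Myl9 and Ldb3), that is 15.4%, and of 1.63% of the 9959 tested genes with a window. A CArG box with 1 C or G in its A/T core was present in 6 of 26 members (23.1%), among them Acta2 and Synm, and in 9.22% of the tested genes. Many members are known SRF targets, so the choice of the list itself favors higher shares. These shares are a description with no test. Both strands were searched, and the box is its own reverse complement, so that a match counts for both. The windows below show the 4 members with a box, then Acta2 as the actin of smooth muscle and Synm as the member with the largest difference in BPB. Each runs 5′ to 3′ on the strand of its gene, with matches in capitals: the full box in Srf, Vcl and Ldb3, the full box and then the interrupted one in Myl9, and interrupted boxes in Acta2 and Synm.
Srf: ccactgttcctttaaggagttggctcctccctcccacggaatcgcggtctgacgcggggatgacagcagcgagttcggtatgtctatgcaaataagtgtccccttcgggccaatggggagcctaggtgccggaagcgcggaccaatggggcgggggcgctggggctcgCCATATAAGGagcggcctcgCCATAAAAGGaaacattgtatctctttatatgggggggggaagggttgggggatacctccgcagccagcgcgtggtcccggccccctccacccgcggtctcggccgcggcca
Vcl: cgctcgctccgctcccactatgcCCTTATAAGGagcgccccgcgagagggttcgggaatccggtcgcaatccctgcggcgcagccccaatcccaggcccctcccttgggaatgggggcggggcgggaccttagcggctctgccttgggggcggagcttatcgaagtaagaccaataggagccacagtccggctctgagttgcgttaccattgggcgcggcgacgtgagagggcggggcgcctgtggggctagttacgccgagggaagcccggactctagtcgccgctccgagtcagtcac
Myl9: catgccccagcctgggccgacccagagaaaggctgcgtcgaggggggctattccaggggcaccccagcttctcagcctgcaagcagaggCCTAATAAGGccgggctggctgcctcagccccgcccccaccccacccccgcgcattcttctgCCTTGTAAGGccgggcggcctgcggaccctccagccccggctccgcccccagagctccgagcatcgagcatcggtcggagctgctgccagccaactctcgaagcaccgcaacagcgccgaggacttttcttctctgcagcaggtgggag
Ldb3: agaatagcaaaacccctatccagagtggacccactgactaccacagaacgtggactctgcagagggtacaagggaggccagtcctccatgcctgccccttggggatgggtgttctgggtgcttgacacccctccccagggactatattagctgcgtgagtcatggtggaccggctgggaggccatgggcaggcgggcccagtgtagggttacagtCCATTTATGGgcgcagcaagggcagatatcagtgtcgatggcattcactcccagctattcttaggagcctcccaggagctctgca
Acta2: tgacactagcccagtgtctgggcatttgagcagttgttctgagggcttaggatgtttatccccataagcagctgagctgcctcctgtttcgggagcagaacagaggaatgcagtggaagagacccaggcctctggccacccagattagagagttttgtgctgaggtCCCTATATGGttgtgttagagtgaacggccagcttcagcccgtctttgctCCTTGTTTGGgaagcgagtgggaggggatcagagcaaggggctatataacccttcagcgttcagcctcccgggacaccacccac
Synm: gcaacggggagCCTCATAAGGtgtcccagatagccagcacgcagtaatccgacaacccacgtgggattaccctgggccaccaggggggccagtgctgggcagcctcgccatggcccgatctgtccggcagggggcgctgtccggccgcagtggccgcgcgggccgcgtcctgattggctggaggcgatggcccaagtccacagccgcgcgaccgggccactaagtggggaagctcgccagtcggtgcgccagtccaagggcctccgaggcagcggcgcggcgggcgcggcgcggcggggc

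The windows lie at chr17:46556113-46556412 on the minus strand for Srf, chr14:20929148-20929447 on the plus strand for Vcl and chr2:156775214-156775513 on the plus strand for Myl9. For Ldb3 the window is chr14:34588632-34588931, for Acta2 chr19:34255324-34255623 and for Synm chr7:67759693-67759992, all on the minus strand. In Srf the boxes begin 82 and 62 bases before the gene start, in Vcl 227 bases before it, in Myl9 161 bases and in Ldb3 35 bases. The interrupted boxes begin 84 and 34 bases before the start in Acta2, 99 in Myl9 and 239 in Synm. The windows of Synpo2 and Casq2, the other called members, hold neither form. For the 4 members with a full box the log2 difference of BPB from control was 0.31 (Vcl), 0.53 (Myl9), 0.65 (Srf) and 1.12 (Ldb3), and 0 of the 4 were called.

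The 2 members with the highest mean level, Tagln and Acta2, belong to the actin filament. Acta2, the alpha actin of smooth muscle, stood at 2311, 2766 and 3146 FPKM in BPB 1, 2 and 3, at 1078, 1219 and 238 FPKM in BPAF 1, 2 and 3 and at 1688, 1892 and 1125 FPKM in control 1, 2 and 3. All BPB libraries lay above all controls, while BPAF 2 lay above control 3. It did not pass the test in BPB (log2 difference 0.83, SE 0.59, adjusted p = 0.529) or in BPAF (-1.17, SE 0.59, adjusted p = 0.434). Tagln, which encodes the actin-binding protein transgelin, had 2457, 2619 and 4035 FPKM in BPB 1, 2 and 3, 1382, 1068 and 457 FPKM in BPAF 1, 2 and 3 and 1363, 1586 and 1304 FPKM in control 1, 2 and 3. Its BPB libraries lay above the controls and its BPAF libraries overlapped with them. The log2 difference from control was 1.07 in BPB (SE 0.45, adjusted p = 0.262) and -0.69 in BPAF (SE 0.45, adjusted p = 0.539).

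Synpo2, the gene of synaptopodin 2 (myopodin), stood at 41.3, 43.7 and 58.4 FPKM in BPB 1, 2 and 3, at 12.8, 13.3 and 10.1 FPKM in BPAF 1, 2 and 3 and at 12.6, 20.8 and 15.2 FPKM in control 1, 2 and 3. The lowest BPB library was above the highest control, whereas BPAF and control overlapped. Synpo2 rose in BPB by 1.51 on the log2(FPKM + 1) scale (SE 0.26, 95% interval 0.93 to 2.10, adjusted p = 0.0259 in limma), with a ratio of group means of 2.94. In BPAF the log2 difference from control was -0.38 (SE 0.26, adjusted p = 0.554).

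Of the other 8 actin filament genes none passed either test. Actg2, the gamma actin of visceral smooth muscle, averaged 926 ± 298 FPKM in BPB, 177 ± 104 FPKM in BPAF and 452 ± 62.9 FPKM in control. Its 3 BPB libraries all lay above the controls and its 3 BPAF libraries all below. Cnn1, the calponin gene, averaged 850 ± 220, 194 ± 111 and 382 ± 119 FPKM in BPB, BPAF and control, with the same order of libraries. Tpm1 and Tpm2, the tropomyosins, and Cnn1 and Actg2 made up the 4 actin filament genes whose BPAF libraries lay below every control. Tpm1 averaged 108 ± 22.2, 33.6 ± 14.6 and 57.5 ± 8.24 FPKM in BPB, BPAF and control, and Tpm2 averaged 313 ± 85.7, 94.7 ± 47.1 and 164 ± 24.9 FPKM. Lmod1, the gene of leiomodin 1, which nucleates actin filaments, averaged 65.9 ± 21.1 FPKM in BPB, 19.8 ± 11.1 FPKM in BPAF and 28.2 ± 8.28 FPKM in control. Caldesmon (Cald1), which inhibits the actin-activated myosin ATPase, and smoothelin (Smtn), a protein of contractile smooth muscle, varied among the controls. Cald1 averaged 47.9 ± 9.12, 19.4 ± 9.97 and 31.9 ± 21.2 FPKM in BPB, BPAF and control, and Smtn 128 ± 45.6, 47.0 ± 11.5 and 64.0 ± 35.9 FPKM. Over the 11 genes the log2 difference ranged from 0.24 (Nexn) to 1.51 in BPB and from -1.59 (Actg2) to -0.30 (Smtn) in BPAF, with medians of 1 and -0.86. Nexn, the nexilin gene, was highest in control 3 at 26.3 FPKM, where control 1 and 2 had 7.22 and 8.75 FPKM.

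Reads of some members may be shared with other genes. The actins are near-identical in sequence, so counts of Acta2 and Actg2 are uncertain against Acta1 and Actc1, the skeletal and cardiac actins, and Myl9 likewise against its close copies. Acta1 had 215, 133 and 401 FPKM in BPB 1, 2 and 3, 85.9, 42.6 and 8.24 FPKM in BPAF 1, 2 and 3 and 144, 85.5 and 62.0 FPKM in control 1, 2 and 3. These levels were below those of Acta2 in every library. In the GENCODE M21 annotation 62.4% of the exon bases of Tagln, 59.6% of those of Pln and 25.5% of those of Vcl overlap exons of a gene on the other strand. Pcp4 shares 23.7% of its exon bases with Igsf5 on the same strand, and Smtn 16.3% with a gene on the other strand. The partner genes in these overlaps were among the tested genes for Vcl, Pcp4 and Smtn. Those of Tagln and Pln were not. The sources used here do not say whether reads were counted by strand. How many reads of these members belong to the other gene cannot be told.

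Among the myosin genes Myh11 is the heavy chain specific to smooth muscle. It stood at 534, 1065 and 1222 FPKM in BPB 1, 2 and 3, at 169, 229 and 87.8 FPKM in BPAF 1, 2 and 3 and at 424, 503 and 239 FPKM in control 1, 2 and 3. BPB was above control and BPAF below control in every library, with control 3 close to BPAF 2. The log2 difference from control was 1.25 in BPB (SE 0.48, adjusted p = 0.214) and -1.30 in BPAF (SE 0.48, adjusted p = 0.332), so neither passed. Mylk, the myosin light chain kinase gene, averaged 304 ± 80.2 FPKM in BPB, 92.0 ± 48.0 FPKM in BPAF and 135 ± 54.6 FPKM in control. Myl9, the regulatory light chain gene, averaged 688 ± 101, 282 ± 170 and 477 ± 70.7 FPKM in BPB, BPAF and control. For both, the BPB libraries lay above the controls and BPAF overlapped with control, and neither was called.

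The intermediate filament gene Synm had the largest change among the members in BPB. Its level was 41.5, 87.5 and 103 FPKM in BPB 1, 2 and 3, 7.36, 4.69 and 5.47 FPKM in BPAF 1, 2 and 3 and 8.09, 12.3 and 3.40 FPKM in control 1, 2 and 3. The reads inferred from these values number 8295, 18733 and 18916 in BPB, 1293, 939 and 1002 in BPAF and 1672, 2338 and 589 in control. Every BPB library was above every control, and the BPAF libraries lay within the range of the controls. Synm rose in BPB by 3.17 (SE 0.45, 95% interval 2.15 to 4.19, adjusted p = 0.0183 in limma), and its ratio of group means was 9.75. In BPAF the log2 difference from control was -0.26 (SE 0.45, adjusted p = 0.833), and without control 2 it was 0.09.

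Des, the gene of desmin, which synemin copolymerizes with, had 471, 548 and 848 FPKM in BPB 1, 2 and 3, 216, 164 and 102 FPKM in BPAF 1, 2 and 3 and 207, 538 and 183 FPKM in control 1, 2 and 3. Control 2 lay within the BPB range, and the other controls were near BPAF 1. Des did not pass the test in BPB (log2 difference 1.14, SE 0.48, adjusted p = 0.257) or in BPAF (-0.82, SE 0.48, adjusted p = 0.485). Per length, the ratio of Synm to Des was 0.0880, 0.160 and 0.121 in libraries BPB 1, 2 and 3, 0.0340, 0.0285 and 0.0533 in BPAF 1, 2 and 3 and 0.0391, 0.0229 and 0.0186 in control 1, 2 and 3. The lowest BPB ratio was above the ratios of the other 6 libraries, a description with no test.

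**Figure D2:**
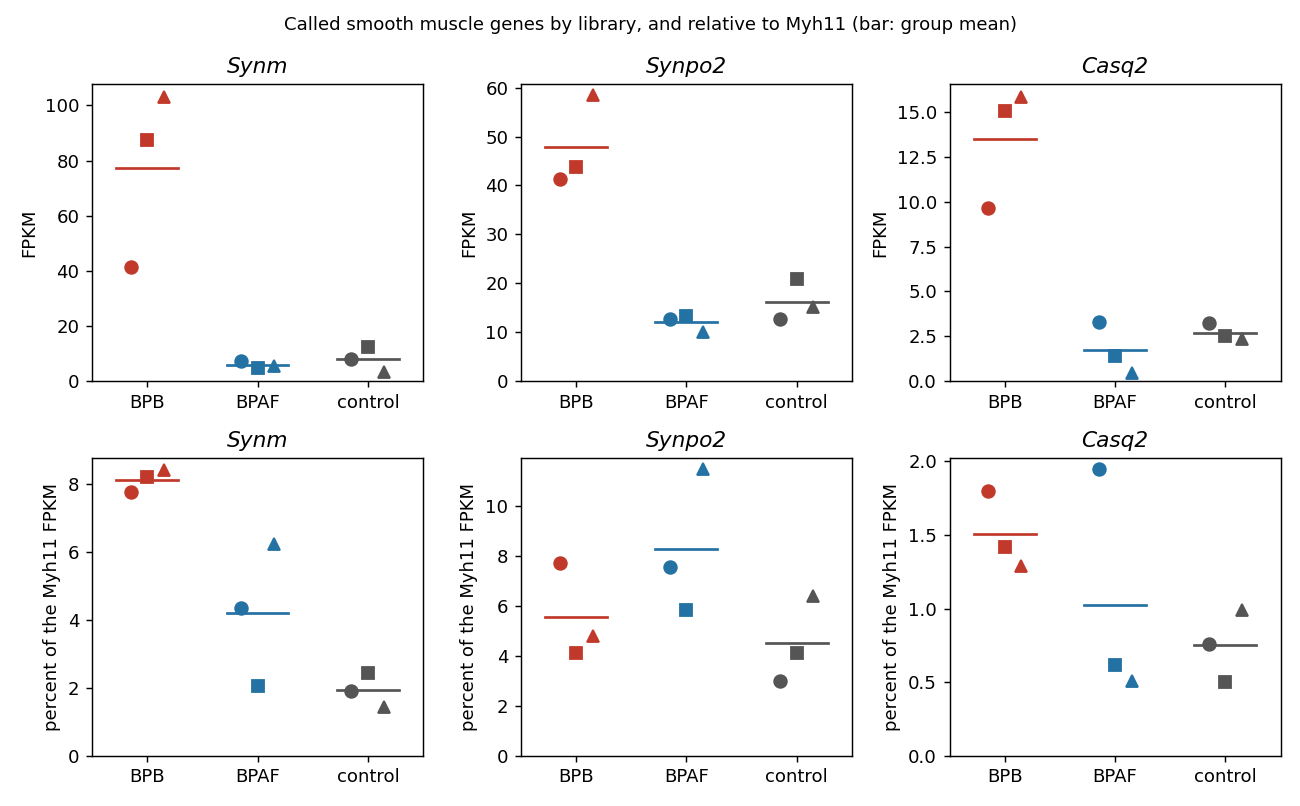
Top row: FPKM of Synm, Synpo2 and Casq2 in each library, by group. Bottom row: the same genes as a percentage of the Myh11 FPKM of the same library. Circles, squares and triangles are replicates 1, 2 and 3, and bars are group means. In the top row the 3 BPB libraries lie above the 6 others for each gene, and in the bottom row this holds for Synm alone, at 7.77% to 8.42% in BPB.

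Among genes of adhesions and dense bodies, none of the 5 passed the test against control. Flna, the gene of the actin cross-linker filamin A, had 148, 237 and 316 FPKM in BPB 1, 2 and 3, 69.7, 118 and 57.1 FPKM in BPAF 1, 2 and 3 and 161, 231 and 67.2 FPKM in control 1, 2 and 3. The controls overlapped with both exposed groups. Its log2 difference from control was 0.71 in BPB (SE 0.50, adjusted p = 0.522) and -0.80 in BPAF (SE 0.50, adjusted p = 0.512). Ldb3, which encodes a PDZ and LIM domain protein of the Z-disc, had 4.97, 10.97 and 13.7 FPKM in BPB 1, 2 and 3, 2.11, 2.83 and 0.816 FPKM in BPAF 1, 2 and 3 and 3.90, 4.18 and 3.04 FPKM in control 1, 2 and 3. The 3 groups did not overlap, with BPB highest and BPAF lowest. Even so it missed the threshold in BPB (log2 difference 1.12, SE 0.39, adjusted p = 0.171) and in BPAF (-0.75, SE 0.39, adjusted p = 0.442).

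Pgm5, the gene of a phosphoglucomutase-like protein (aciculin) of smooth muscle adhesions, averaged 118 ± 44.5 FPKM in BPB, 36.2 ± 14.9 FPKM in BPAF and 49.8 ± 19.0 FPKM in control. Vcl, the vinculin gene, averaged 95.3 ± 25.1, 44.3 ± 15.2 and 80.8 ± 34.3 FPKM in BPB, BPAF and control. Itga8, an integrin alpha chain, was low, with group means of 4.23 ± 0.768, 3.32 ± 2.13 and 2.94 ± 1.49 FPKM in BPB, BPAF and control. For Itga8 the log2 difference of BPAF from control was 0.06, and -0.16 under median-ratio scaling.

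In the group of calcium and potassium handling, Casq2, the calsequestrin that buffers calcium in the sarcoplasmic reticulum, was the only member of 7 tested that passed in BPB. It had 9.63, 15.1 and 15.8 FPKM in BPB 1, 2 and 3, 3.29, 1.40 and 0.443 FPKM in BPAF 1, 2 and 3 and 3.23, 2.51 and 2.37 FPKM in control 1, 2 and 3. The reads number 569, 953 and 858 in BPB, 171, 83 and 24 in BPAF and 197, 141 and 121 in control. BPB did not overlap with control, whereas BPAF 1 lay just above the highest control and BPAF 2 and 3 below the lowest. Casq2 rose in BPB by 1.95 (SE 0.38, 95% interval 1.09 to 2.80, adjusted p = 0.0381 in limma). The call was lost with a pseudocount of 0.1 (adjusted p = 0.082) or 0.01 (0.104), without a filter (0.0684) and with the replicate block (0.0793), as it was without any 1 of the 3 BPB or 3 control libraries. In BPAF the log2 difference from control was -0.58 (SE 0.38, adjusted p = 0.537).

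Pcp4, a gene for a small calmodulin-binding protein, varied widely within groups. It had 1418, 391 and 671 FPKM in BPB 1, 2 and 3, 504, 770 and 195 FPKM in BPAF 1, 2 and 3 and 528, 478 and 1743 FPKM in control 1, 2 and 3. High values occurred in 1 BPB and 1 control library, and the groups overlapped throughout. The log2 difference from control was -0.08 in BPB (SE 0.70, adjusted p = 0.972), but 0.36 without BPB 2 and 0.52 without control 3. In BPAF it was -0.85 (SE 0.70, adjusted p = 0.626).

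Channel and store genes otherwise did not pass. Cacna1c, the pore of the L-type calcium channel, averaged 5.79 ± 2.64 FPKM in BPB, 3.35 ± 1.07 FPKM in BPAF and 4.12 ± 2.29 FPKM in control. Kcnma1 and Kcnmb1 encode the pore and the accessory subunit of the large-conductance calcium-activated potassium channel. Kcnma1 averaged 2.07 ± 1.05, 0.720 ± 0.425 and 1.37 ± 0.844 FPKM in BPB, BPAF and control. Kcnmb1 averaged 21.4 ± 7.40, 8.98 ± 5.03 and 18.0 ± 3.86 FPKM, and its BPAF libraries all lay below the controls. For Kcnmb1 the log2 difference of BPB from control was 0.20, and -0.03 under median-ratio scaling. Jph2, the junctophilin gene that ties the store to the surface membrane, averaged 62.7 ± 12.5, 18.2 ± 10.8 and 37.7 ± 14.6 FPKM. Pln, the gene of phospholamban, the inhibitor of the store's calcium pump, averaged 10.9 ± 1.41, 6.13 ± 3.56 and 8.27 ± 2.41 FPKM. Ryr2, a ryanodine receptor gene, held 84, 303 and 121 reads in BPB 1, 2 and 3, 19, 25 and 56 reads in BPAF 1, 2 and 3 and 181, 90 and 38 reads in control 1, 2 and 3. It reached 1 FPKM in BPB 2 alone and was left out of the test for that reason.

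**Figure D3:**
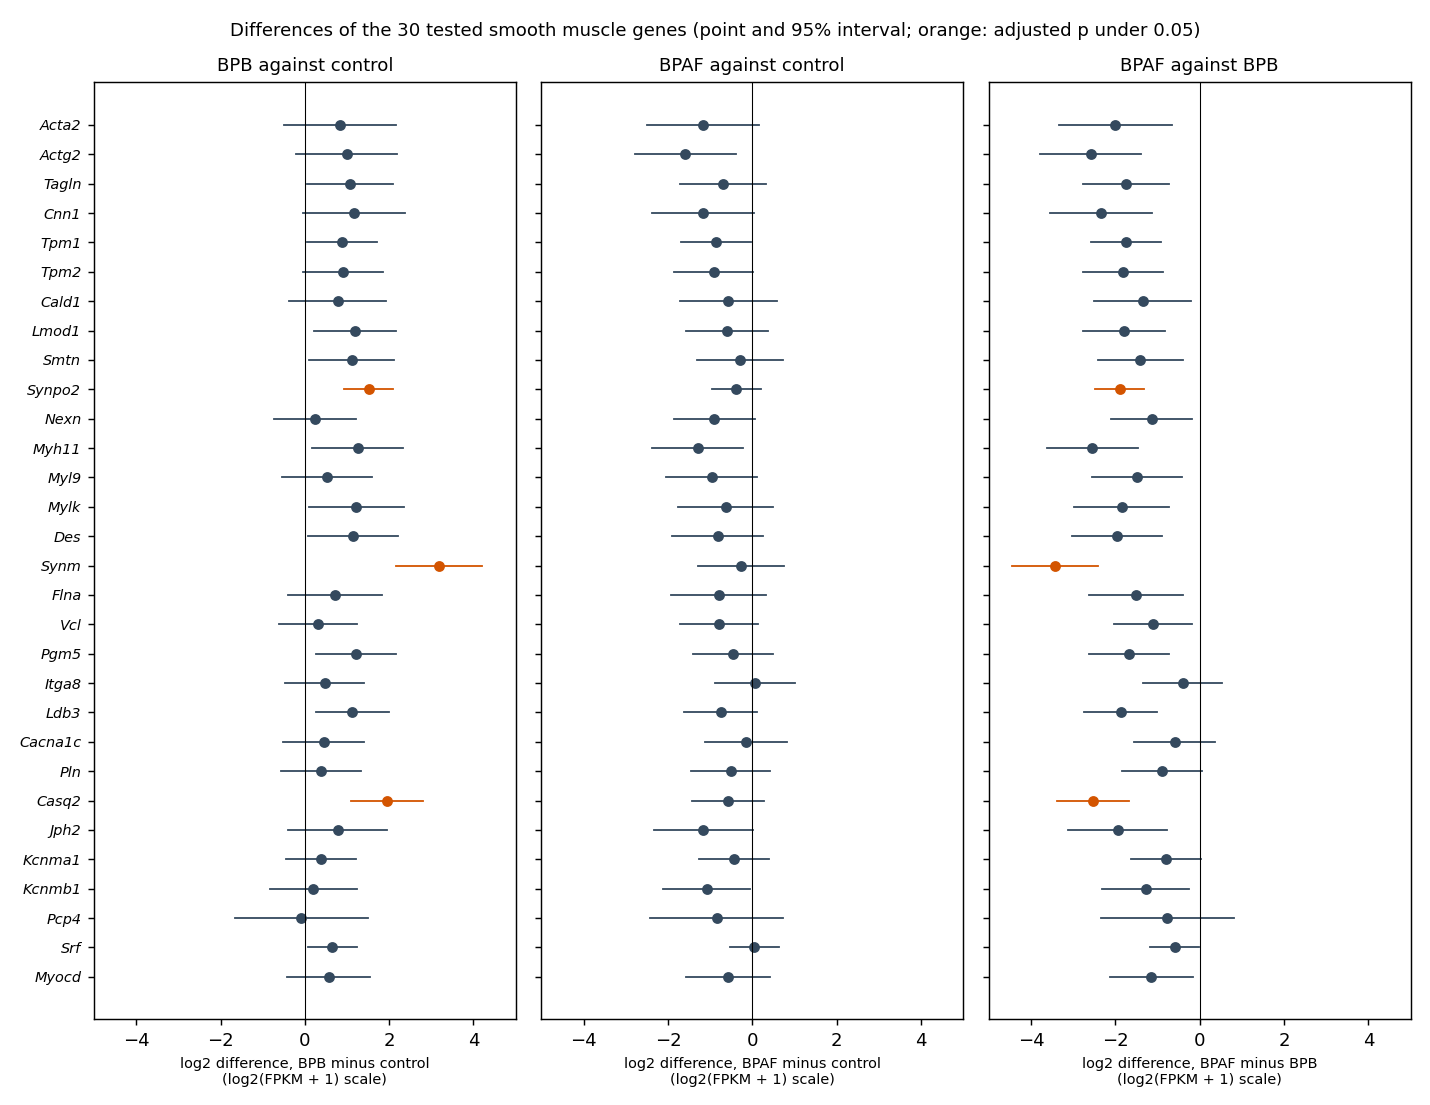
Log2 difference, on the log2(FPKM + 1) scale, of each of the 30 tested members in BPB against control, BPAF against control and BPAF against BPB. Points are estimates, lines are 95% intervals from limma, and orange marks an adjusted p under 0.05. Orange occurs for Synm, Synpo2 and Casq2 in BPB against control and in BPAF against BPB, and for 0 members in BPAF against control.

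At the same daily dose by mass, BPAF and BPB uteri were compared directly. In BPAF 3 of 30 members were lower and 0 higher by the test, the members Synm, Synpo2 and Casq2, where 0.24% of all tested genes were called lower. In 25 of 30 members the 3 BPAF libraries all lay below the 3 BPB libraries, which held for 6.41% of all genes. At an unadjusted p under 0.05, 25 of 30 members were lower, against 4.81% of all genes. All 30 tested members had a lower mean log2 level in BPAF, as had 40.9% of all genes. The median log2 difference was -1.71 for the members and 0.07 for all genes. This comparison uses the same exposed libraries as those against control and is not separate evidence.

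Synm fell to 5.84 ± 1.37 FPKM in BPAF, against 77.3 ± 32.0 FPKM in BPB (log2 difference -3.44, SE 0.45, adjusted p = 0.0414 in limma). Synpo2 fell to 12.1 ± 1.73 FPKM in BPAF, against 47.8 ± 9.27 FPKM in BPB (-1.89, SE 0.26, adjusted p = 0.0414 in limma). Casq2 fell to 1.71 ± 1.45 FPKM in BPAF, against 13.5 ± 3.37 FPKM in BPB (-2.53, SE 0.38, adjusted p = 0.0438 in limma). All 3 BPAF libraries were below all 3 BPB libraries for each of these genes. Myh11 came next, at 162 ± 70.9 FPKM in BPAF and 940 ± 361 FPKM in BPB, with a log2 difference of -2.55 (95% interval -3.63 to -1.47) and an adjusted p of 0.0918 in limma. Actg2 differed by -2.59 (95% interval -3.78 to -1.39, adjusted p = 0.127) and Ldb3 by -1.87 (95% interval -2.74 to -1.003, adjusted p = 0.127), and neither was called. For Pcp4 the difference was -0.77 (95% interval -2.34 to 0.80, adjusted p = 0.985) and for Itga8 -0.40 (95% interval -1.35 to 0.54, adjusted p = 0.990), intervals that include both no difference and a difference of more than 1 on this scale.

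Libraries of BPAF and BPB with the same replicate number deviated together. With the number as a block in the fit 0 members were called (24 were lower at an unadjusted p under 0.05), with a lowest adjusted p of 0.181 in limma, and with the 6 libraries alone and the block the lowest was 0.23. The calls also ended, at 0 members, when any of BPB 1, BPB 2, BPB 3, BPAF 2, BPAF 3, control 1, control 2 or control 3 was left out, with 19 to 26 members lower at an unadjusted p under 0.05, and the count was 5 without BPAF 1 (Lmod1, Synm, Casq2, Actg2 and Synpo2). Over all genes the block also left 0 called, so the calls in BPAF against BPB of genes outside the members, given further on, are lost with it as well.

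Libraries differed in the level of the members as a whole. The mean log2(FPKM + 1) of the 30 tested members was 6.16, 6.43 and 6.80 in libraries BPB 1, 2 and 3, 5.22, 5.14 and 4.21 in BPAF 1, 2 and 3 and 5.53, 5.92 and 5.23 in control 1, 2 and 3. As a share of the summed FPKM of all genes, the members took 2.71%, 3.26% and 4.72% in libraries BPB 1, 2 and 3, 1.27%, 1.47% and 0.463% in BPAF 1, 2 and 3 and 2.21%, 2.78% and 1.29% in control 1, 2 and 3. BPAF 1 lay below all controls for 10 of 31 members, BPAF 2 for 18 and BPAF 3 for 23. BPB 1 lay above all controls for 16 of 31 members, BPB 2 for 24 and BPB 3 for 26. How many of all genes lay outside the control range in each library was not counted, so these counts have no background.

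Set against the mean of the tested members in the same library, some genes stood out from this shared level. On the log2 scale and relative to that mean, Synm was higher by 2.27 in BPB than in control, Casq2 by 1.05 and Synpo2 by 0.61, while Pcp4 was lower (-0.98), as were Kcnmb1 (-0.70) and Nexn (-0.66). In BPAF the relative difference from control was -0.89 for Actg2 and -0.59 for Myh11, and 0.77 for Itga8 and 0.76 for Srf. Synm amounted to 7.77%, 8.22% and 8.42% of the Myh11 level in BPB 1, 2 and 3, to 4.36%, 2.05% and 6.23% in BPAF 1, 2 and 3 and to 1.91%, 2.44% and 1.43% in control 1, 2 and 3. Casq2 amounted to 1.80%, 1.42% and 1.29% of Myh11 in BPB 1, 2 and 3, to 1.95%, 0.613% and 0.505% in BPAF 1, 2 and 3 and to 0.760%, 0.499% and 0.993% in control 1, 2 and 3. Synpo2 relative to Myh11 overlapped between BPB (7.73%, 4.10% and 4.78%), BPAF (7.56%, 5.82% and 11.5%) and control (2.98%, 4.13% and 6.38%). These relative values describe the libraries and were not tested.

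Other genes of the same machinery were taken from 6 lists. Of 20 genes that set the phosphorylation of myosin, such as the RhoA pathway and myosin phosphatase, 0 passed the test in any comparison in limma. Among them 4 were higher in BPB than in control at an unadjusted p under 0.05, where 12.8% of all genes were. The list's median log2 difference in BPB against control was 0.27. In the list of SRF coactivators and smooth muscle transcription factors 1 of 20 tested genes passed in BPB, Foxf1, a forkhead factor of visceral mesenchyme. Foxf1 had 14.6, 20.6 and 13.8 FPKM in BPB 1, 2 and 3, 4.97, 1.73 and 3.13 FPKM in BPAF 1, 2 and 3 and 1.07, 1.22 and 0.656 FPKM in control 1, 2 and 3. Its BPB libraries lay above all others. It rose in BPB by 3.11 (SE 0.31, adjusted p = 0.0105) and fell by 2.07 in BPAF against BPB (SE 0.31, adjusted p = 0.0448), both in limma.

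Among 20 tested receptors and gap junction genes, 4 rose and 1 fell in BPB. P2rx1, the ATP-gated channel through which purinergic nerves contract bladder and vas deferens, had 74.4, 126 and 177 FPKM in BPB 1, 2 and 3, 15.9, 0.367 and 0.510 FPKM in BPAF 1, 2 and 3 and 0.436, 0.474 and 0.309 FPKM in control 1, 2 and 3. BPAF 1 was the single library outside BPB above 1 FPKM. Chrm2, a muscarinic acetylcholine receptor, was at 4.20 ± 1.36 FPKM in BPB, against 0.0349 ± 0.0201 FPKM in control (log2 difference 2.30, adjusted p = 0.0105 in limma). It fell by 2.16 in BPAF against BPB (adjusted p = 0.0414 in limma). Tacr2, a tachykinin receptor, rose by 1.44 in BPB (adjusted p = 0.0469 in limma). Avpr1a, a vasopressin receptor named after its values were seen, rose by 1.90 (adjusted p = 0.0489 in limma). Oxtr, the oxytocin receptor of the myometrium, had 0.951, 2.37 and 3.20 FPKM in BPB 1, 2 and 3, 1.07, 13.5 and 3.28 FPKM in BPAF 1, 2 and 3 and 39.7, 56.4 and 14.7 FPKM in control 1, 2 and 3. Every exposed library lay below every control, and Oxtr fell by 3.46 in BPB (SE 0.71, adjusted p = 0.0416 in limma).

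In the calcium and potassium list 1 of 30 tested genes rose in BPB, the calcium-activated chloride channel Ano1 (log2 difference 1.93, adjusted p = 0.0405). At an unadjusted p under 0.05, 10 of these 30 were higher in BPB, where 12.8% of all genes were, and Sln was at 0 in all 9 libraries. Of 40 tested genes of dense plaques, costameres and the dystrophin complex 2 rose in BPB, Dtna (2.04, adjusted p = 0.0258) and Lims2 (1.58, adjusted p = 0.0489), and 12 of the 40 were higher at an unadjusted p under 0.05. In the list of nitric oxide and cyclic nucleotide relaxation 1 of 13 passed, the phosphodiesterase Pde5a, at 26.2 ± 7.09 FPKM in BPB, against 2.60 ± 1.10 FPKM in control (log2 difference 2.93, adjusted p = 0.0105). Pde5a fell by 2.36 in BPAF against BPB (adjusted p = 0.0414), a call that, like those of Foxf1 and Chrm2, is lost with the replicate block. These p-values come from the same limma fit over all genes. Over the 6 lists 10 of 143 tested genes were called in BPB against control, where 2.05% of all genes were called higher and 0.502% lower, and 36 were higher and 5 lower at an unadjusted p under 0.05. In BPAF against BPB 3 of 143 were called and 36 were lower at an unadjusted p under 0.05, where 4.81% of all genes were. In BPAF against control 0 of the 143 tested genes of the 6 lists were called. At an unadjusted p under 0.05, 8 were higher and 4 lower, where 2.75% of all genes were lower. The share of all genes higher at that p is not reported here, so the 8 have no background. The list medians ran from -0.17 to 0.22, where the members' median was -0.72.

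Markers of other tissues moved with the members in BPB, and their part in the members' levels was not tested. Of the 15 urothelial genes 11 were called higher in BPB against control. Of 9 mesenchymal and muscle genes known from the lower urinary tract, 6 were tested and all 6 were called higher, among them Pitx1, Hoxd13, Tbx5 and Tbx4. Summed, this list reached 26.5, 40.4 and 30.8 FPKM in BPB 1, 2 and 3, 6.51, 1.45 and 0.336 FPKM in BPAF 1, 2 and 3 and 0.478, 0.472 and 2.55 FPKM in control 1, 2 and 3. Hoxd13 had 4.22, 5.91 and 5.08 FPKM in BPB 1, 2 and 3 and 0.911 FPKM in BPAF 1. In BPAF 2, BPAF 3 and all controls it was listed at 0. In BPAF against BPB 3 of the 6 were called lower (Hoxd13, Pitx1 and Tbx5), and with the replicate block none was.

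Some striated muscle markers differed too, and others did not. A list of 13 genes of skeletal muscle summed to 309, 203 and 510 FPKM in BPB 1, 2 and 3, 119, 56.3 and 12.9 FPKM in BPAF 1, 2 and 3 and 160, 134 and 85.4 FPKM in control 1, 2 and 3, most of it Acta1. Of its 7 tested genes 2 rose in BPB, the myosin Myh2 and the creatine kinase Ckm. Among the other listed genes, Myh1, Myh4, Myh7, Myl1 and Mb stayed below 1 FPKM in all 9 libraries. Tnni2 was highest in control 2, at 26.9 FPKM. In a cardiac list of 8 genes, of which 5 were tested, the troponin Tnnt2 and the actin Actc1 rose in BPB. That list summed to 88.6 to 142 FPKM in BPB, 3.64 to 24.0 FPKM in BPAF and 6.06 to 20.3 FPKM in control, and Nkx2-5, a defining cardiac factor, was at 0 in all 9 libraries. Casq2 and Ldb3 are also expressed in striated muscle, and the part of such cells was not tested.

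Vascular mural cells, which share many of the members, gave another order of groups in their summed markers. Their 10 markers summed to 251, 140 and 183 FPKM in BPB 1, 2 and 3, 206, 178 and 238 FPKM in BPAF 1, 2 and 3 and 104, 146 and 113 FPKM in control 1, 2 and 3. Rgs5 was the largest part, with 85.7 to 185 FPKM in BPB, 106 to 152 FPKM in BPAF and 35.5 to 71.9 FPKM in control. In BPB against control 1 of the 10, Rgs4, was called, and it fell by 1.62 (adjusted p = 0.0361 in limma). At an unadjusted p under 0.05, 2 were higher and 1 lower in BPB than in control, and 3 higher and 1 lower in BPAF. Of all genes, 12.8% were higher in BPB and 2.75% lower in BPAF at that p. The shares of all genes in the opposite directions are not reported here. Endothelial markers summed to 71.7 to 90.6 FPKM in BPB, 88.6 to 166 FPKM in BPAF and 43.4 to 122 FPKM in control, with 0 of 11 called in limma and 1 higher in BPB and 3 higher in BPAF than in control at an unadjusted p under 0.05. Stromal markers summed to 1145 to 2482 FPKM in BPB, 1139 to 2149 FPKM in BPAF and 2783 to 4031 FPKM in control. The sums of both exposed groups thus lay below the controls, but single markers went both ways. At an unadjusted p under 0.05 in limma, 2 were higher and 2 lower in BPB than in control. In BPAF 2 were higher and 3 lower than in control. Of the 11 markers 1, Pi16, was called, higher in BPB. Uterine epithelial markers overlapped in all groups (1030 to 1720 FPKM in BPB, 869 to 1800 FPKM in BPAF and 1063 to 1865 FPKM in control), with 1 of 10 tested genes, Prom1, lower in BPB.

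Markers of nerve and Schwann cells, which innervate muscle walls, summed to 7.92 to 11.3 FPKM in BPB, 1.77 to 8.35 FPKM in BPAF and 1.93 to 2.62 FPKM in control. In limma 0 of their 4 tested genes were called. All 4 were higher in BPB at an unadjusted p under 0.05, where 12.8% of all genes were. Adipocyte markers varied within groups, from 106 to 903 FPKM in BPB, 4.07 to 681 FPKM in BPAF and 83.8 to 108 FPKM in control, with 0 of 8 called and 0 at an unadjusted p under 0.05. Macrophage markers summed to 93.4 to 341, 51.2 to 630 and 171 to 339 FPKM in BPB, BPAF and control, with 0 of 9 called and 1 lower in BPB at an unadjusted p under 0.05. The mesothelial list held 1 call in BPB, Upk3b, which the urothelial list also holds, and the list of interstitial cells held 1, Ano1, which is also on the calcium and potassium list. What part any of these cells had in the members' levels was not tested.

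**Figure D4:**
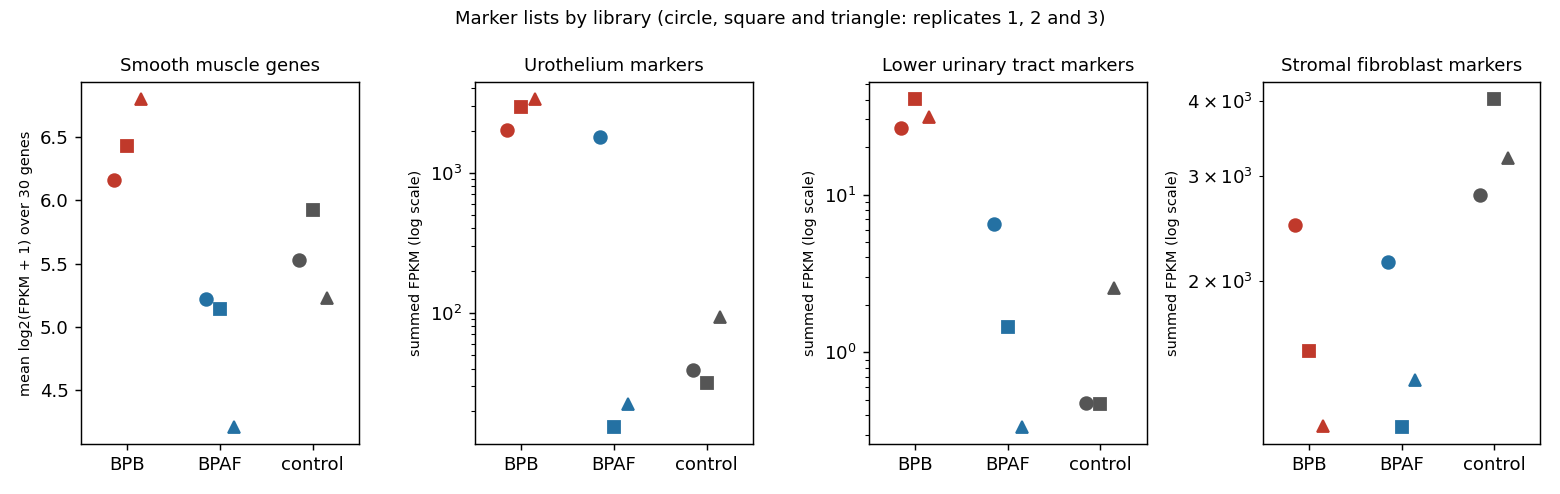
Each library by group: the mean log2(FPKM + 1) of the 30 tested smooth muscle members on a linear axis that does not start at 0, and the summed FPKM of urothelial, lower urinary tract and stromal marker lists on log axes. Circles, squares and triangles are replicates 1, 2 and 3. The members are highest in the 3 BPB libraries and lowest in BPAF 3 (4.21), and the urothelial list is high in the 3 BPB libraries and BPAF 1.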

How the data were processed

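Poly(A) RNA of 9 uterus libraries (3 each of BPB, BPAF and control, grouped from the sample titles) was analysed, with 0 columns of values left unused. Per library the authors deposited 1 table of gene symbols and values, whose header names no unit. They were taken to be FPKM as computed by the authors, because low values are whole multiples of a step set by gene length: per library, 86.0% to 87.8% of the values checked came out whole within 0.01. The step gave the reads behind a member's value, with the shortest gene length that made its smaller counts whole. That length was fitted and not taken from an annotation, so the reads are inferred. Large counts, such as those of Synm in BPB, were not checked for being whole. The sources used here name no aligner, counter, build or annotation, and do not say whether strand was used. Of 34745 lines per file, 126 that carry 59 repeated symbols were left out.

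Genes with 1 FPKM or more in at least 3 libraries (13743 genes) were tested in limma 3.58.1 (R 4.3.3) with trend and robust estimation, two-sided, on log2(FPKM + 1). A single fit held all 9 libraries, with no term but group. Changes of low genes are understated on this scale. Benjamini-Hochberg adjustment ran over all tested genes. Since the unit was not counts, the planned test for normalized values was the one applied. The test was tried on simulated data before use.

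Same-numbered libraries were compared by the correlation, across genes, of their deviations from the group means. For BPAF and BPB it was 0.34, 0.34 and 0.48, and between unlike numbers of these groups -0.34 to -0.07. The numbers were therefore treated as pairing these libraries, in the alternatives with a block and not in the main fit. Values of this size also occurred without a shared number, such as 0.45 for BPB 1 with control 3 and 0.37 for BPB 3 with control 2. The pairing is thus not established. For same-numbered libraries of BPB and control the correlation was -0.37, -0.13 and -0.40, and for BPAF and control -0.16, -0.08 and -0.25. Replicates of a group correlated at 0.854 to 0.941, and no pair held identical values throughout.

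The members and the gene lists were chosen with earlier results of these data known. Values in every library are given for members called in any comparison, for the member of each role with the smallest p in BPB against control and the one with the highest mean, and for Acta2, Myh11, Myocd and Srf. Of the other lists, called genes are named, up to 4 a list by smallest p, with the highest marker of some lists. Alternatives were other pseudocounts and filters, limma without trend or robust estimation, other scalings, the replicate block, the 6 libraries of a comparison, and each library left out. The 6 libraries with the block were added after the data were seen. Promoter windows came from RefSeq (GRCm38.p6), and exon overlaps from GENCODE M21.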

Additional observations from a re-analysis of the deposited data

How the results depend on the processing

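In BPB against control, 3 members were called. With the replicate number as a block the count was 0 (lowest adjusted p in limma 0.0562, with 9 higher at an unadjusted p under 0.05), and with the 6 libraries of the comparison and the block it was 1 (Synm). With a pseudocount of 0.1 or 0.01 or without a filter it was 2 (Synm and Synpo2). Leaving out 1 library at a time gave 0 to 3. Members higher at an unadjusted p under 0.05 numbered 13, but 6 under median-ratio scaling and 8 after rescaling without mitochondrial genes. The numbers did not pair BPB or BPAF with control, and in BPAF against control the block left 0 members and 0 of all genes called, in place of 0 members and 1 higher and 2 lower of all genes. In BPAF against BPB, 3 members were called as well, and the count was 0 with a pseudocount of 0.1 or 0.01, without a filter, with a filter of 5 FPKM, after rescaling without mitochondrial genes, with the 6 libraries alone, with the replicate block, and with both of these. Leaving out 1 library at a time gave 0 to 5, and the cause of these losses was not tested. In BPAF against control the count was 0 under every alternative run, and the number of members lower at an unadjusted p under 0.05 was 15 under median-ratio scaling, in place of 4, and 1 to 11 without 1 library. Shares of all genes at an unadjusted p under 0.05 were counted for the main fit only, not for the alternatives.

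The members' median log2 difference kept its sign under all alternatives run, from 0.61 to 1.05 in BPB against control, -0.98 to -0.42 in BPAF against control and -1.94 to -1.29 in BPAF against BPB. Of the named members' values, 7 reversed: Pcp4 in BPB against control, at 0.36 without BPB 2 and 0.52 without control 3 (range without 1 library -0.57 to 0.52), Synm in BPAF against control, at 0.09 without control 2 (range -0.70 to 0.09), and Srf in BPAF against control, at -0.24 by median ratios, 0 after rescaling without mitochondrial genes, -0.01 without BPAF 2 and -0.16 without control 3 (range -0.16 to 0.26). Another 70 lost their call, and 633 kept both their direction and their side of the threshold. Synm in BPB against control was called in 16 of 20 alternatives, Synpo2 in 13 and Casq2 in 9, and each was called in 4 of 20 in BPAF against BPB. Of the members whose reads were recovered, Myocd, Kcnma1, Ryr2, Casq2, Ldb3 and Pln had fewer than 100 reads in at least 1 library, which limits their precision.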
